A study of Mus musculus with 2 samples.

Results

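The genes described here encode insulin-like growth factor 1 (IGF1), the receptors for IGF1 and insulin, the insulin receptor substrates that pass on their signal, and proteins that bind IGFs outside the cell. The 10 genes were Igf1, Igf1r, Insr, Irs1, Irs2, Igfbp3, Igfbp4, Igfbp5, Igfbp6 and Igfbp7. An m6A peak was counted to a gene when its summit lay inside the gene's span in the RefSeq annotation of GRCm38.p6, the assembly of mm10. By this rule 45 of the 38366 listed peaks belonged to 9 of the 10 genes, and Igfbp4 had none.

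IGF1 is made by many cells and, in the mouse uterus, is induced in the stroma by estrogen and acts on the epithelium. It binds a receptor tyrosine kinase, IGF1R, which resembles the insulin receptor, and both receptors phosphorylate the docking proteins IRS1 and IRS2, from which the PI3-kinase and AKT arm starts. IGF-binding proteins hold IGFs in tissue and circulation and can block or prolong their action. N6-methyladenosine (m6A) is a common internal mark of mRNA that reader proteins recognise and that can change how long a transcript lasts or how well it is translated.

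The study mapped m6A in uterine RNA by methylated RNA immunoprecipitation sequencing (MeRIP-seq) in wild-type mice of the C57BL/6 strain. In this assay fragments bound by an anti-m6A antibody are sequenced beside input RNA. The m6A group was 1 library, labelled as equal amounts of gestation day 4 and gestation day 8 uterus, and the input group was 1 library of whole uterus without antibody, whose label names no pooling. The deposited peak names all carry the prefix D8posIP-Neginput, with day 8 in it but no day 4, so the makeup of the immunoprecipitated RNA rests on its label. No treatment is labelled, the number of animals is not given in the sources used here, and the days cannot be told apart in a pool. With no replicates, no test between groups was possible, and each value describes this pair of libraries.

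The strength of a peak is given as fold enrichment, which the authors' peak caller computed at the summit by dividing the immunoprecipitated (IP) fragments plus 1 by the local background plus 1. Local background is the peak caller's estimate from the input around the summit, in fragments scaled to the IP library. The brackets after a fold hold an exact 95% Poisson interval for the count of IP fragments, in which the background is taken as known, so they cover counting error only. Over the whole list the median fold was 6.16, the median summit had 29 IP fragments and the median local background was 3.33. All 14 listed markers of uterine stroma, epithelium, smooth muscle and endothelium carried a peak (Pgr, Esr1, Hoxa10, Hoxa11, Hand2, Krt8, Krt18, Cdh1, Epcam, Acta2, Myh11, Des, Pecam1 and Cdh5), beside 55.7% of all protein-coding genes. Both Hoxa11 summits also lay in the annotated gene LOC115490410. The trophoblast markers Prl3d1 and Tpbpa had none, and the liver genes Alb and Apoa1 had peaks of 6.66-fold (4.09 to 10.3) and 9.05-fold (6.41 to 12.4). In whole tissue, fewer cells of a type and less RNA per cell cannot be told apart. Where a gene has no peak, an unmethylated transcript cannot be told from these either.

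In 4 of the 9 genes with an annotated start in the RefSeq promoter table, which has no entry for Insr, a summit lay within 500 bases of it, beside 13.2% of all protein-coding genes with 1 such start. The summit counted for Irs2 also lay in the annotated gene 9530052E02Rik, so its peak cannot be assigned to 1 of these genes. The sequence at these 4 starts is printed because a peak covers part of it in Irs2 and Igfbp7. Each line runs 5′ to 3′ on the gene strand, from 60 bases before the start to base 30 of the transcript, from RefSeq on GRCm38.p6. Capitals mark bases inside an m6A peak.
Irs2 (chr8:11008900-11008989, minus strand): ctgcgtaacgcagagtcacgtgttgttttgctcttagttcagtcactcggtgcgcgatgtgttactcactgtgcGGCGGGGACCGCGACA
Igfbp7 (chr5:77408016-77408105, minus strand): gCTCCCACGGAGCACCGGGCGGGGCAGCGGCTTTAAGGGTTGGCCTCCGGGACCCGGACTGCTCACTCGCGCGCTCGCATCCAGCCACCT
Igf1r (chr7:67952197-67952286, plus strand): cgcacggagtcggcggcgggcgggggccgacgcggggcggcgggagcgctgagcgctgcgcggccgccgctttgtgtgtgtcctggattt
Igfbp6 (chr15:102144126-102144215, plus strand): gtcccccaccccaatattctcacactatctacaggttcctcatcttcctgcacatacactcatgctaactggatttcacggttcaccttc

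The Igfbp7 peak reached 59 bases before the annotated start, so all but 1 of the 90 printed bases lie in it, while the Irs2 peak began 14 bases after the start base. The peaks of Igf1r and Igfbp6 began 182 and 294 bases after it and hold no printed base. The first transcribed base as annotated was G in Irs2 and Igfbp7 and C in Igf1r and Igfbp6. Among the 1944 protein-coding genes with 1 annotated start and a summit within 500 bases of it, 29.1% had A there, against 28.3% of the 5756 genes whose peaks all lay farther away and 39.4% of all 14731 genes with 1 such start. An annotated start is 1 position, while cells often use several. The first 50 transcribed bases were also searched for the m6A consensus DRACH, that is any of A, G or T, then A or G, then AC, then any base but G, on both strands. On the gene strand Irs2 held GGACC from base 20, inside the peak shared with 9530052E02Rik. Igfbp6 held TAACT from base 6, outside its peak, and Igf1r and Igfbp7 held no such word in these 50 bases. The Igfbp7 peak also covers bases before the annotated start, which were not searched. There its printed capitals include GGACC and GGACT. By the annotation these bases are not in the transcript, and no share over other genes is given for them. On the opposite strand, which is not in the transcript, Igf1r held 1 word and Igfbp6 held 2. Of the 1944 genes, 41.5% held at least 1 word on the gene strand and 46.4% on the other, beside 51.7% and 52.6% of all 14731 genes and 44.0% and 50% of genes with peaks only farther away.

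Peaks were present in 9 of the 10 genes (90%, exact Clopper-Pearson 95% interval 55.5 to 99.7), beside 55.7% of all protein-coding genes. The 10 genes were chosen with earlier results of these data known, so the interval is a description and not a test. Most of these genes are long: their median span was 41.3 kb, against 17.2 kb over all protein-coding genes. Among protein-coding genes with a span between the shortest and the longest of the 10, 63.4% carried a peak. Taking the highest peak of each gene, the median fold was 10.2 over the 9 genes, beside 8.04 over all peak-carrying protein-coding genes. A highest value tends to rise with the number of peaks. The 9 genes held 2 to 9 peaks each, beside a median of 2 over peak-carrying protein-coding genes. Over all 45 peaks the median fold was 5.92, beside 6.16 over the whole list. At least 10-fold was reached by the highest peak of 5 of the 9 genes, beside 31.4% of peak-carrying protein-coding genes, and by 10 of the 45 peaks, beside 14.8% of all peaks. Irs2 alone held 5 of these 10 peaks. The 45 folds ran from 2.75 in Igfbp6 to 23.6 in Irs2.

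**Figure D1:**
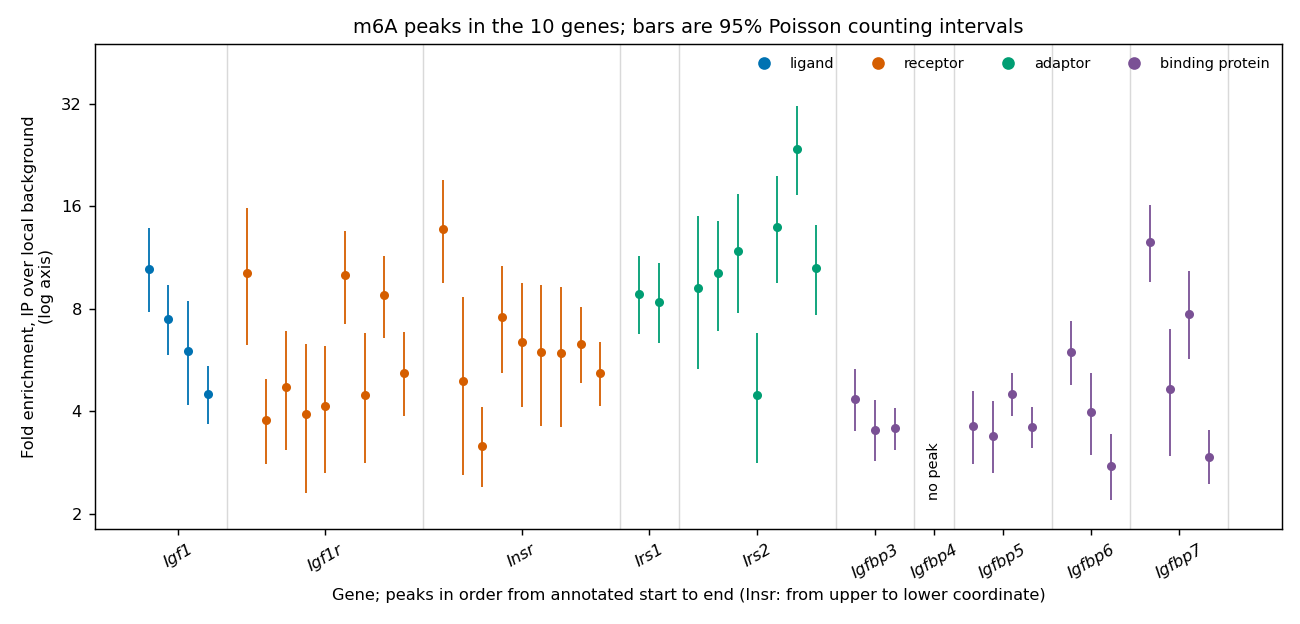
Fold enrichment (log axis) of each of the 45 peaks, grouped by gene and ordered from annotated start to end (Insr from upper to lower coordinate), with exact 95% Poisson counting intervals as bars and colours for the gene's role. Irs2 holds the highest point at 23.6-fold, the peaks of Igfbp3 and Igfbp5 all lie below 5-fold, and Igfbp4 has no peak.

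The ligand gene Igf1 (NCBI Gene 16000, chr10:87858265-87937047, plus strand) carried 4 peaks, all in the later part of the gene. From start to end they were 10.5-fold (7.81 to 13.8), 7.46-fold (5.85 to 9.39), 6.03-fold (4.18 to 8.44) and 4.49-fold (3.68 to 5.42), from 49, 71, 32 and 106 IP fragments. The fold was lower at each successive peak, and the intervals of the first and last did not overlap. The first 3 summits lay close together, 53422 to 56049 bases after the annotated start, at chr10:87914368-87914663, chr10:87914922-87915696 and chr10:87917015-87917249. The last, at chr10:87930510-87930769, lay 6373 bases before the end of the span, where the local background was 22.9, against 3.77, 8.65 and 4.47 at the others. No summit lay within 5 kb of either end of Igf1, and the nearest summit outside the gene was 136014 bases away.

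Igf1r, the IGF1 receptor gene (NCBI Gene 16001, chr7:67952257-68233668, plus strand), carried 9 peaks at its start, deep inside it, and near its end. The start peak, at chr7:67952439-67952766, was 10.2-fold (6.26 to 15.8), with 18 IP fragments where the background was 0.865 and its summit 336 bases after the start shown above. Between 51897 and 85770 bases after the start lay 4 peaks of 3.77-fold to 4.70-fold, the weakest area of the gene. The last area held 4 peaks. The first of them, at chr7:68225878-68226686, was 10.03-fold (7.24 to 13.6) from 40 IP fragments. The others were 4.46-fold (2.81 to 6.78), 8.75-fold (6.56 to 11.5) and 5.18-fold (3.86 to 6.82), and the summit of the last lay 1893 bases before the end. The strongest peaks of both outer areas had overlapping intervals. That of the last area lay above the intervals of all 4 middle peaks. The start peak lay above those of 3.77-fold (2.79 to 4.99) and 4.13-fold (2.63 to 6.22). It overlapped those of 4.70-fold (3.08 to 6.90) and 3.91-fold (2.30 to 6.30). With 188252 bases between the middle and the last area, no summit fell in most of the span.

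Insr, which encodes the insulin receptor (NCBI Gene 16337, chr8:3150922-3279649), also carried 9 peaks. Its highest peak lay at the upper-coordinate end of the span, at chr8:3279205-3279653, with the summit 219 bases from that end. With 33 IP fragments and a background of 1.48, it stood at 13.7-fold (9.55 to 19.1). The next 3 peaks from that end were 4.92-fold (2.59 to 8.68), 3.17-fold (2.40 to 4.11) and 7.58-fold (5.20 to 10.7), the first of them from 10 IP fragments, the fewest of all 45 peaks. Toward the lower-coordinate end lay 5 peaks of 5.17-fold to 6.40-fold, and all 5 intervals overlapped. The 2 nearest to that end, at chr8:3155404-3156130 and chr8:3153401-3154281, had 60 and 84 IP fragments. Both receptor genes thus had a peak of at least 10-fold within 500 bases of 1 end of the span and a group of peaks within 10 kb of the other, and the intervals of their highest peaks overlapped. A further summit lay 3163 bases below the lower end, in no annotated gene, at 5.68-fold (3.34 to 9.14), and was not counted.

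**Figure D2:**
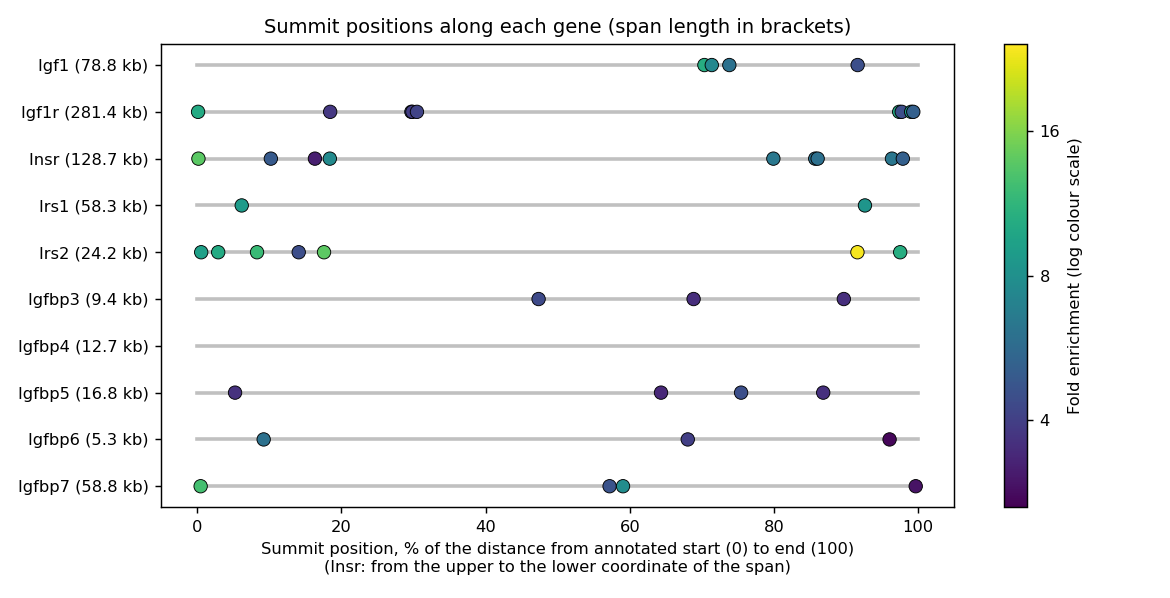
Summit positions of the 45 peaks as a percentage of the distance from annotated start to end of each gene (Insr from upper to lower coordinate), coloured by fold enrichment on a log scale, with the span length after each gene name. Peaks of Igf1 sit in the later part of the gene, those of Irs1 and Irs2 toward both ends, and Igfbp4 has none.

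The substrate genes Irs1 and Irs2, whose proteins dock PI3-kinase and other effectors at the activated receptors, had peaks in like places but in different numbers. Irs1 (NCBI Gene 16367, chr1:82233105-82291439, minus strand) carried 2. The first, at chr1:82286780-82291211, was 4432 bases wide, wider than 99.9% of all peaks, and only 56 of the 38366 peaks were 4 kb or wider. It ran from 228 to 4659 bases after the start, and its summit, 3602 bases after the start, reached 8.84-fold (6.74 to 11.4) from 57 IP fragments. The second, at chr1:82237167-82237778, lay 4304 bases before the end and reached 8.39-fold (6.34 to 10.9) from 54 IP fragments. The background was 5.56 at both summits and their intervals overlapped.

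Irs2 (NCBI Gene 384783, chr8:10984681-11008929, minus strand) carried 7 peaks in 24.2 kb, more than 93.1% of peak-carrying protein-coding genes. Of these, 5 lay in a run from 14 to 4449 bases after the start and together covered 3612 bases, in the stretch where Irs1 had its wide peak. In order they were 9.20-fold (5.31 to 15.0), 10.2-fold (6.87 to 14.5), 11.8-fold (7.76 to 17.4), 4.46-fold (2.81 to 6.78) and 13.9-fold (9.50 to 19.6). The peak of 4.46-fold was lower than the Irs2 peaks of 10.2-fold, 11.8-fold and 13.9-fold beyond the counting intervals. The first 2 summits also lay in the annotated gene 9530052E02Rik. As the list carries no strand, these 2 peaks cannot be assigned to 1 of the genes.

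The highest fold of all 10 genes lay near the end of Irs2, at chr8:10986104-10987192. There 43 IP fragments against 0.865 of background gave 23.6-fold (17.2 to 31.6), with the summit 2042 bases before the end. This fold exceeded the highest fold of 98.4% of peak-carrying protein-coding genes. It also exceeded 98.6% of all peaks whose background plus 1 lay within 20% of its own, a comparison that sets aside the fall of fold with background. The last peak, at chr8:10985120-10985400, was 10.5-fold (7.65 to 14.1) and lay 604 bases before the end. The highest peak of Irs2 did not overlap in interval with either peak of Irs1, while 6 of the 7 Irs2 backgrounds were at most 3.09, against 5.56 in Irs1.

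**Figure D3:**
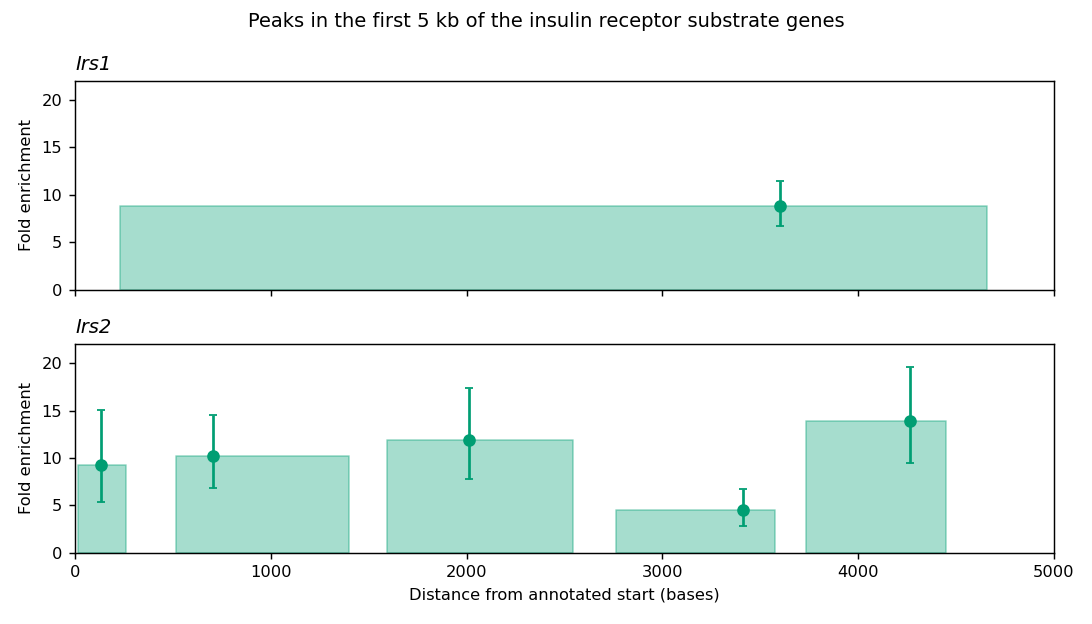
Peaks in the first 5000 bases after the annotated start of Irs1 (top) and Irs2 (bottom); shaded boxes give each peak's extent, drawn as high as the fold at its summit, and points with bars give the summit fold with its 95% Poisson counting interval. A wide peak of 8.84-fold spans 228 to 4659 bases in Irs1, where Irs2 shows 5 separate peaks of 4.46-fold to 13.9-fold.

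The IGF-binding protein genes differed from each other in both number and strength of peaks. Igfbp3 (NCBI Gene 16009, chr11:7206086-7215498, minus strand), whose product carries most circulating IGF in a complex with the acid-labile subunit, had 3 peaks. From start to end they were 4.33-fold (3.49 to 5.32), 3.53-fold (2.86 to 4.31) and 3.57-fold (3.08 to 4.10), from 89, 94 and 195 IP fragments, and their intervals overlapped. The last, at chr11:7206268-7207661, was 1394 bases wide with its summit 808 bases before the end. Igfbp5 (NCBI Gene 16011, chr1:72858065-72874865, minus strand), which encodes a matrix-associated binding protein, had 4. They were 3.61-fold (2.80 to 4.58), 3.38-fold (2.63 to 4.27), 4.48-fold (3.87 to 5.17) and 3.59-fold (3.13 to 4.11). The last 2, at chr1:72861615-72862615 and chr1:72858132-72861315, were 1001 and 3184 bases wide and lay side by side at the end of the gene. Their 189 and 209 IP fragments bracket the 195 of Igfbp3, and these 3 summits had the deepest IP coverage of the 45.

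Igfbp6 (NCBI Gene 16012, chr15:102144186-102149512, plus strand), whose product prefers IGF2 over IGF1, had 3 peaks with falling fold. They were 5.96-fold (4.78 to 7.35), 3.97-fold (2.98 to 5.18) and 2.75-fold (2.19 to 3.42), with summits 491, 3624 and 5115 bases after the start, at chr15:102144480-102144814, chr15:102147660-102147865 and chr15:102149059-102149390. The first and last did not overlap in interval. Igfbp7 (NCBI Gene 29817, chr5:77349240-77408045, minus strand) encodes a related secreted protein that binds IGFs only weakly. Its start peak, at chr5:77407583-77408104, was 12.5-fold (9.57 to 16.1) from 58 IP fragments. The other 3 were 4.65-fold (2.96 to 6.998), 7.74-fold (5.69 to 10.3) and 2.94-fold (2.44 to 3.51), the last of them 198 bases before the end, with 120 IP fragments and a background of 40.1. A summit 725 bases beyond that end, inside the neighbouring gene Polr2b, was 2.50-fold (1.64 to 3.66) and was not counted. The start peak of Igfbp7 was higher than every peak of Igfbp3, Igfbp5 and Igfbp6 beyond the counting intervals.

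Igfbp4 (NCBI Gene 16010, chr11:99040005-99052655, plus strand), whose product inhibits IGF action until the protease PAPP-A cuts it, was the gene without a peak. The nearest summit lay 14956 bases above its span. Of the 2182 protein-coding genes with a span within 20% of its own, 58.8% carried a peak. The list gives no input coverage where no peak was called, so an unmethylated and a thinly covered Igfbp4 transcript cannot be told apart.

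By highest fold the genes ranked Irs2, Insr, Igfbp7, Igf1, Igf1r, Irs1, Igfbp6, Igfbp5 and Igfbp3. Each neighbouring pair in this order overlapped in its counting intervals. The highest peaks of Igfbp3 and Igfbp5 lay below those of the first 6 genes beyond the intervals, and Irs2 lay above all except Insr.

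Fold and local background moved in opposite directions across these genes. The 14 peaks of binding protein genes had a median fold of 3.79 and a median background of 19.5, and the 9 peaks of Irs1 and Irs2 had 10.2 and 1.85. Receptor peaks, 18 in all, had a median of 5.55-fold over a background of 3.40, and the 4 Igf1 peaks had 6.75-fold over 6.56. Over the 45 peaks Spearman's rho between fold and background was -0.73, and over all 38366 peaks it was -0.39. Background plus 1 is the denominator of the fold, and peaks of 1 gene share a transcript, so these are descriptions. Set beside all peaks whose background plus 1 was within 20%, the median percentile of the fold was 81.1 for the substrates, 70.8 for Igf1, 51.4 for the binding proteins and 39.4 for the receptors. At like background, the low folds of Igfbp3 and Igfbp5 thus lay near the middle of the list or above it at 5 of 7 peaks, with percentiles of 46.3 to 87.9, and the other 2 stood at 34.7 and 32.3.

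**Figure D4:**
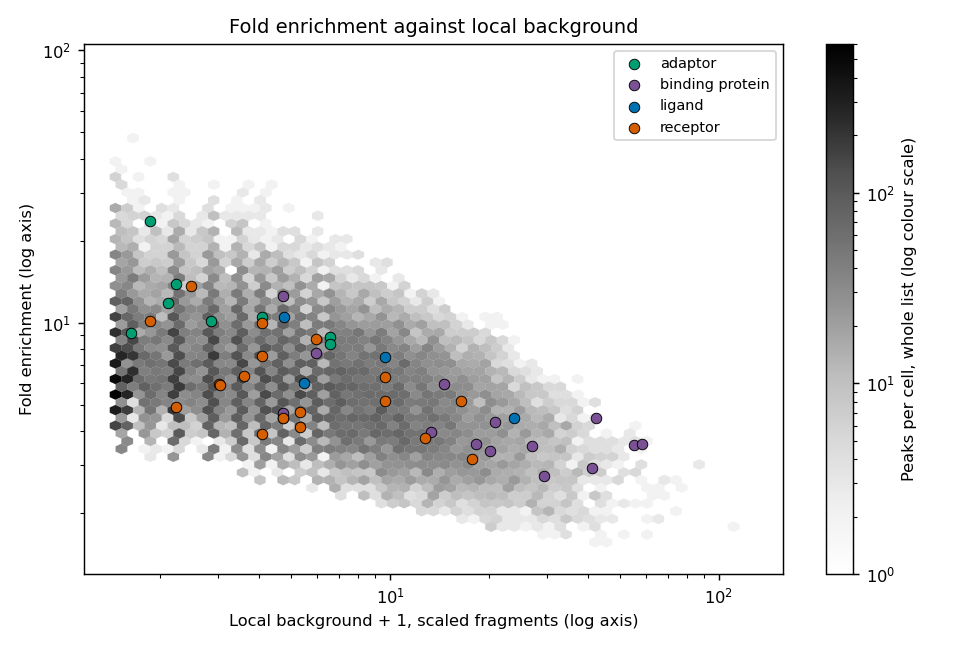
Fold enrichment against local background plus 1, both on log axes, for all 38366 peaks (grey cells, darker for more peaks) and for the 45 peaks by gene role (coloured points). Binding protein peaks lie mostly to the lower right, at a median of 3.79-fold over a background of 19.5, and the substrate peaks to the upper left, at 10.2-fold over 1.85.

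Position along the gene was compared with the rest of the list. Within 1000 bases of either end of the span lay 11 of the 45 summits (24.4%, Clopper-Pearson interval 12.9 to 39.5), beside 25.9% of summits in protein-coding genes. Within 500 bases the shares were 15.6% and 16.8%, and within 2000 bases 28.9% (16.4 to 44.3) and 38.0%. These intervals treat the peaks of 1 gene as independent, which they are not. Of the 9 genes with an annotated start, 8 carried a peak and 4 had the summit near the start described above (Igf1r, Irs2, Igfbp6 and Igfbp7), beside 25.2% of peak-carrying protein-coding genes with 1 annotated start. The summit of Irs2 is the one shared with 9530052E02Rik. Igfbp6 and Igfbp7 also had a summit within 500 bases of the end, 2 of the 8, beside 27.3% of such genes, so this count lay near the share of the whole list. No summit of these 8 genes lay before the annotated start, beside 1.87% of summits in protein-coding genes with 1 such start. The counting rule largely fixed this, as a summit had to lie in the gene span. Of the 8, only the spans of Igf1 and Igfbp3 reach beyond the annotated start, by 2846 and 1575 bases.

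The local background was higher at the last peak than at the first in 7 of the 8 genes with an annotated start and at least 2 peaks, beside 75.7% of such genes in the whole annotation. It went from 3.71 to 40.1 in Igfbp7, from 3.77 to 22.9 in Igf1, from 19.8 to 54.0 in Igfbp3 and from 17.3 to 57.4 in Igfbp5. In Irs1, the exception, the background was 5.56 at both peaks. The fold was lower at the last peak in 7 of the 8, all but Irs2, beside 61.8% of such genes. Only in Igf1, Igfbp6 and Igfbp7 did the intervals of first and last peak not overlap. The part of the background in this order was not tested.

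Of 52 other genes of the pathway, 45 carried a peak (86.5%, Clopper-Pearson interval 74.2 to 94.4), beside 55.7% of all protein-coding genes. With summits in several genes left out, which removes Inpp5d and Tsc2, the count was 43. The 52 genes were chosen with earlier results of these data known, so the interval is a description and not a test. Their median highest fold was 7.65, beside 8.04 over all peak-carrying protein-coding genes, and 12 of the 45 reached 10-fold, beside 31.4%. Their median span was 49.0 kb, also longer than that of all protein-coding genes.

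Among ligands and the genes that release or clear them, 4 of 9 had a peak (44.4%), near the 55.7% of all protein-coding genes. Their median span was 12.1 kb, and the part of span in this count was not tested. The insulin genes Ins1 and Ins2, the growth factor gene Igf2, the acid-labile subunit gene Igfals and the stanniocalcin gene Stc1 had none. Stc2, whose product inhibits the protease PAPP-A, had the highest fold of this group at 12.4 (7.69 to 19.0), with 19 IP fragments and a background of 0.618. Pappa2, which encodes a protease that cuts IGF-binding proteins, reached 10.9-fold (7.45 to 15.4) and held 7 peaks. Of the other receptors and binding proteins, Igf2r, Insrr and Igfbp2 had a peak, of 5.69-fold, 5.03-fold and 3.66-fold, and Igfbp1, a decidual binding protein in humans, had none. Igfbp2 lies beside Igfbp5 on chromosome 1, and its highest fold is in the range of 3.38 to 4.48 seen in Igfbp5.

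Adaptor genes carried a peak in 12 of 13 cases, all but Irs4, beside 55.7% of all protein-coding genes. Crk, an SH2 and SH3 adaptor, was the highest of the 52 at 24.9-fold (19.7 to 31.0), from 77 IP fragments at chr11:75679233-75679843. Its interval overlapped that of the highest Irs2 peak. Gab2, a docking protein, held 11 peaks, the most of the list, with a highest of 8.63-fold (5.91 to 12.2). All 11 genes of the PI3-kinase arm had a peak, beside the same 55.7%. The median span was 64.6 kb for the adaptors and 69.0 kb for this arm, against 17.2 kb over all protein-coding genes. Pik3r1, the regulatory subunit that binds the insulin receptor substrates, reached 23.3-fold (16.2 to 32.4) at chr13:101767802-101768271, where the background stood at the genome-wide level of 0.462. Inpp5d, an inositol phosphatase, reached 10.9-fold (7.45 to 15.4) at a summit that also lay in Gm33470. Neither of its 2 summits lay in Inpp5d alone, so its peaks cannot be assigned to 1 gene.

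All 7 output genes and all 8 inhibitor genes carried a peak, beside 55.7% of all protein-coding genes. The forkhead factor gene Foxo1, held out of the nucleus by AKT, reached 10.8-fold (8.10 to 14.2). The others ran from 3.23-fold in Tsc2, whose only summit also lay in Pkd1, to 10.2-fold in Foxo3. Socs1, a suppressor of cytokine and insulin signalling, reached 13.7-fold (8.51 to 21.0), from 19 IP fragments at the genome-wide background. The phosphatase genes Ptpn1 and Ptpn11 held 8 peaks each, with highest folds of 10.7 (8.50 to 13.2) and 7.97 (5.27 to 11.6). The remaining inhibitors had highest folds of 5.65 to 10.1.

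**Figure D5:**
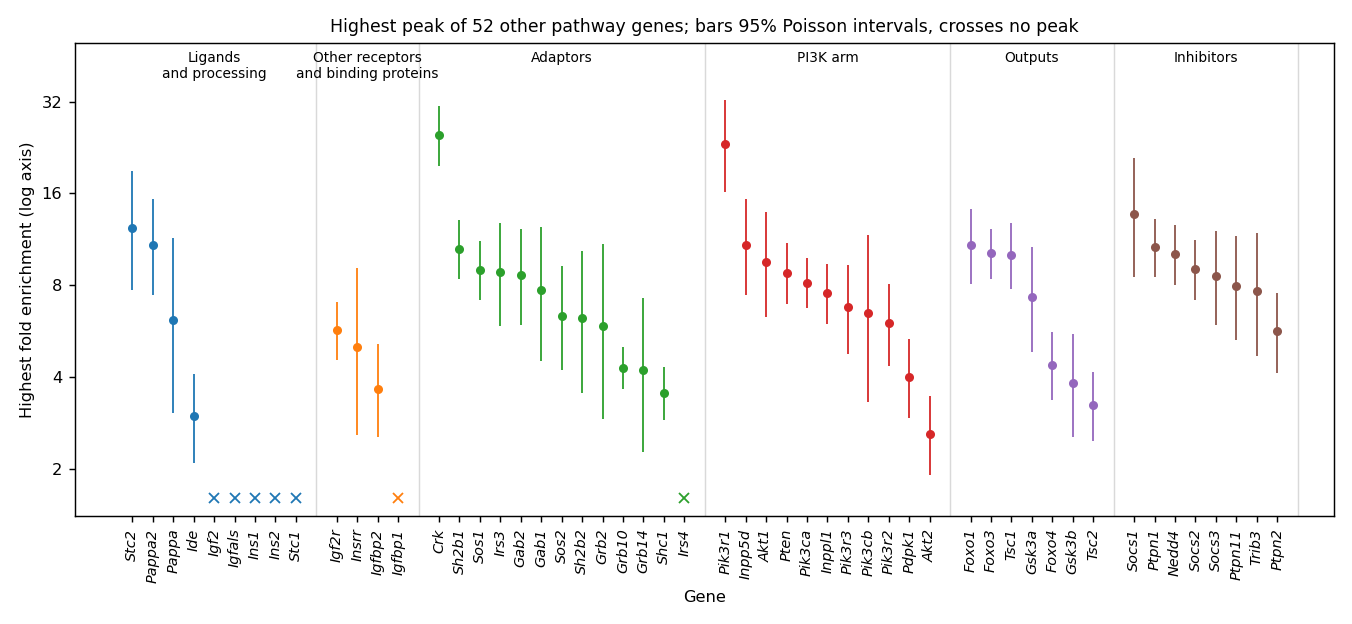
Highest fold enrichment (log axis) of each of 52 other genes of IGF and insulin signalling, in 6 groups and in falling order within each, with exact 95% Poisson counting intervals as bars and crosses at the foot for the 7 genes without a peak. Crk at 24.9-fold and Pik3r1 at 23.3-fold stand highest. Of the 7 crosses, 5 fall among the ligands and their processing genes, whose median span was 12.1 kb against 49.0 kb over the 52 genes.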

How the data were processed

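Per the labels' protocols, total RNA was extracted with TRIzol and libraries were made with a strand-keeping kit. HISAT2 2.2.1, MACS3 3.0.0a7 and mm10 are named in the submitters' processing notes; with settings and the treatment of duplicate reads not given in the sources used here. A peak list, the only file, holds 38366 peaks called in the m6A library with the input as control. The deposited fold enrichment (ratio of IP pileup to background) and the deposited −log10 p and −log10 q are the authors' own values at each summit, with a lowest −log10 q of 1.32. The deposited display score was not used.

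From these, whole IP fragments k and background were recovered from fold = (k + 1)/(background + 1) and from p, read as a Poisson tail above k. The −log10 p so computed was within 0.001 of the deposited one at 100% of peaks, and the recovery was tested on simulated data. Library totals were not used here.

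Gene spans came from RefSeq GRCm38.p6, without 365 rows outside the assembled chromosomes, and strand and start from its promoter table. Exons were not used here. The planned motif search around summits needs a genome and was restricted to the first 50 transcribed bases; planned protein comparisons were not made. Coordinates are counted from 1. All 10 members and 52 pathway genes were chosen with earlier results of these data known. A planned pathway gene is not reported here. Named pathway genes are the 6 with the highest fold, the 3 with the most summits and those without a peak, and others were named after their values were seen, as was the comparison of first and last peaks. Alternatives were minimums of 5 for −log10 q, 4 for fold and 20 for IP fragments, merged intervals, overlap of 1 base or 50%, summits in 1 gene only, flanks of 5 kb, the median fold per gene and other distances to a gene end. The software was scipy 1.17.1, numpy 2.4.6, matplotlib 3.10.9 and pandas 2.3.3 under Python 3.11.15.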

Additional observations from a re-analysis of the deposited data

How the results depend on the processing

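The count of 9 genes with a peak was the same under the 8 alternatives run for it. The count of 45 peaks ranged from 34 with a fold of at least 4 to 47 with flanks of 5 kb, and the count of 45 other pathway genes with a peak from 39 to 48. The share of summits near a gene end ranged from 15.6% within 500 bases to 28.9% within 2000, beside 16.8% and 38.0% of summits in protein-coding genes. The highest fold of each gene moved only in Igf1r, to 10.03 with at least 20 IP fragments, within its interval. The median highest fold of 10.2 became 5.97 when the median over a gene's peaks replaced the highest. No whole-list value of that measure is given here. The 8.04 over all peak-carrying protein-coding genes is a median of highest folds and is not comparable with 5.97. No paired analysis was possible because each group held 1 library. The limits are the absence of replicates, of exons and of input coverage outside peaks, and 10 to 20 IP fragments behind the least covered summits.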
